A study of Mus musculus with 12 samples.

Results

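Selenoprotein mRNA and ribosome footprints in liver of mice carrying a mutant selenocysteine (Sec) tRNA transgene, TrspA37G, were compared with those of wild-type mice, both on a diet with 0.1 ppm selenium, the adequate supply. The comparison was defined by genotype and diet alone and takes 4 of the 12 libraries of the series. These are 1 footprint and 1 mRNA library of each genotype. All 23 listed selenoprotein genes were followed. The TrspA37G animals are of strain FVB/N/TrspA37G and carry 20 copies of the transgene. The wild-type animals are FVB/N. All were kept for 6 weeks on their diet. The labelled age of 3 weeks is shorter than the time on the diet, so the age at which liver was taken stays unknown here. Nothing in the labels says that the TrspA37G mice lack their own Sec tRNA gene, so the mutant tRNA may be present beside the normal one. The labels used here name neither the promoter of the transgene nor the number of mice behind a library. The other 8 libraries, from mice fed 0 or 2.0 ppm selenium, serve only to show where the comparison at 0.1 ppm differs.

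Selenoproteins hold Sec, the selenium-containing amino acid, which is inserted at a UGA codon that would otherwise end translation. A dedicated Sec tRNA, an element in the 3' UTR of the mRNA and several protein factors recode this UGA, and a ribosome that is not supplied with Sec may stop there, which can also expose the mRNA to nonsense-mediated decay. The base named in A37G lies beside the anticodon of the Sec tRNA and normally carries an isopentenyl group, which a guanosine cannot carry. Liver makes much of the body's selenoprotein and secretes Sepp1, the carrier that takes selenium to other organs. Selenoproteins are often sorted into a stress-related group, whose synthesis is sensitive to selenium supply, and a housekeeping group, which is less so.

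The UGA codon for Sec lies at different depths of these coding sequences. The sequences below show the surroundings of that codon for the genes on which the comparison turns, and for Gpx4, which served as a contrast. They were taken from GENCODE M21 transcripts (build GRCm38), on the coding strand and 5' to 3'. The 3 capitals are the UGA codon, written TGA, with 5 codons before and 4 codons after it.
Gpx1: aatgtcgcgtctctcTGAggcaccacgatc
Gpx4: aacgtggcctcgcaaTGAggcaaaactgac
Sepx1: ggacaatcaagattcTGAatatttagcagc
Sepw1: gtgtattgtggagctTGAggctataagccc
Selh: gagcattgtacgagcTGAcgcgtgtacggc
Sephs2: tccggcatgaagggcTGAggctgcaaggtc
Sepp1: cttcttcaagccagcTGAtacttgtgtctt
Dio1: tttggcagttgcaccTGAccttcatttctt
Seli: aaaccaaactcagatTGActaggaatggaa
Gpx1 spans chr9:108339054-108340343 on the plus strand, and its Sec codon is codon 47 of 201, in exon 1 of 2. Sepx1, annotated as Msrb1, spans chr17:24736642-24742778 on the plus strand with Sec at codon 95 of 116. Sephs2 spans chr7:127271879-127274055 on the minus strand with Sec at codon 63 of 452, and Sepp1 spans chr15:3270921-3280507 on the plus strand with the first of its 10 Sec codons at codon 59 of 380. Sepw1 (chr7:15917208-15922402, minus strand) has Sec at codon 13 of 88, near the start, whereas Seli (chr5:30232581-30272427, plus strand) has it at codon 388 of 398 and Txnrd2 (chr16:18426417-18479073, plus strand) at codon 526 of 527. In Dio1 (chr4:107291465-107307169, minus strand) it is codon 126 of 257, in Selh (chr2:84669215-84670770, minus strand) codon 38 of 116 and in Gpx4 (chr10:80053488-80056439, plus strand) codon 73 of 197. Over all 23 genes the base after the UGA was G in 12, C in 6, A in 3 and T in 2.

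Footprint libraries held 29816461 mapped reads in TrspA37G and 30296837 in wild type, and mRNA libraries 10669213 and 14220047. Footprints over the coding sequences (CDS) of the listed genes made up 0.131% of mapped reads in TrspA37G against 0.341% in wild type. Without Gpx1 these shares were 0.105% and 0.185%. In mRNA the listed genes held 0.460% of mapped reads in TrspA37G and 0.660% in wild type, and without Gpx1 0.347% and 0.427%. The files hold selenoprotein genes only, so the liver label could not be checked against other markers of hepatocytes, and differences that the whole library shares could not be measured. In bulk liver, fewer cells of a type and less RNA per cell cannot be told apart.

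Levels are given as deposited, in RPKM for mRNA, which is a read count scaled by transcript length and by library depth, and in RPFKM for footprints, the same unit counted over ribosome-protected fragments. With 1 library a side there are no replicates and no p-value. A gene was called lower or higher when its ratio of TrspA37G to wild type was at least 1.5-fold and the 95% interval made from its reads excluded 1. These intervals cover counting error only and leave out the variation between mice. Dio2 had 0 reads in all 4 libraries, which allows up to 3 in each, Dio3 at most 2 and Gpx2 at most 4 in any window, so 20 of 23 genes were compared in mRNA and in footprints over the CDS.

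Footprints of Gpx1 carried the largest fold of any gene in mRNA, CDS footprints or efficiency, and footprints differed in more genes than mRNA did. Footprints over the CDS were lower in TrspA37G for 8 of 20 genes (40.0% of those tested) and higher for 0 (0.0%). mRNA was lower for 4 of 20 (20.0%) and higher for 1 (5.0%). Translational efficiency, here the footprint level over the CDS divided by the level of the whole mRNA, was lower for 6 of 20 (30.0%) and higher for 0 (0.0%). As the files list no other genes, these shares are both the members' counts and their own background. The median log2 ratio of TrspA37G to wild type was -0.48 for footprints, -0.23 for mRNA and -0.30 for translational efficiency. Scaled so that the median gene of the list does not differ, footprints were lower for 7 and higher for 3 genes (Dio1, Seli and Selk), mRNA was lower for 4 and higher for 2 (Dio1 and Seli), and efficiency was lower for 5 (all but Sepp1) and higher for 0. mRNA counted over the CDS alone was again lower for 4 genes (20.0%) and higher for 1 (5.0%), with a median log2 ratio of -0.31, and the genes were the same 5.

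**Figure D1:**
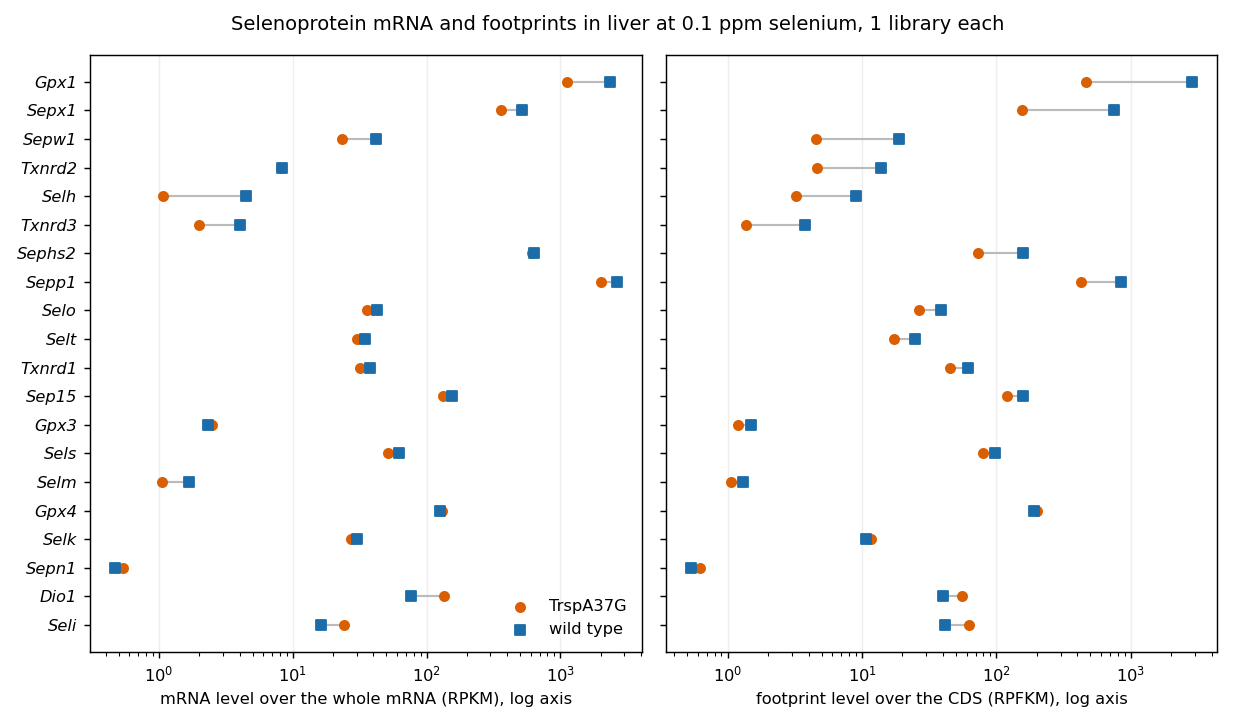
Levels of mRNA (left, RPKM over the whole mRNA) and of footprints (right, RPFKM over the CDS) at 0.1 ppm selenium on log axes, 1 library each, for the 20 genes with enough reads; orange circles are TrspA37G and blue squares wild type, joined by a grey line. The gap for Gpx1 is wider in footprints (461 against 2863 RPFKM) than in mRNA (1125 against 2327 RPKM), while the Gpx4 markers nearly coincide in both.

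Among the glutathione peroxidases, which reduce hydroperoxides with glutathione, Gpx1 was called lower in mRNA, footprints and efficiency, and Gpx4 in none of them. Gpx1, the abundant cytosolic enzyme, had 1125 RPKM of mRNA in TrspA37G against 2327 RPKM in wild type, 2.07-fold lower (95% interval 2.03 to 2.11). Its footprints over the CDS were at 461 RPFKM in TrspA37G against 2863 RPFKM in wild type, 6.21-fold lower (6.06 to 6.36). The Gpx1 difference in footprints therefore exceeded that in mRNA, and its translational efficiency was 0.410 in TrspA37G and 1.23 in wild type, 3.00-fold lower (2.91 to 3.10). In wild type Gpx1 held the highest footprint level of the list, with 53.8% of the summed RPFKM, and in TrspA37G it was still the highest, with 26.3%. Gpx4, which reduces lipid hydroperoxides within membranes, had 130 RPKM of mRNA in TrspA37G and 126 RPKM in wild type. Its footprints were at 200.1 RPFKM in TrspA37G and 191 RPFKM in wild type, a log2 ratio of 0.06 (-0.01 to 0.14), and its translational efficiency at 1.54 and 1.52. The interval of Gpx4 in footprints leaves room for at most a 1.10-fold higher level in these libraries. Gpx3, the plasma glutathione peroxidase made mainly in kidney, was low in liver, with 22 and 28 footprints over the CDS in TrspA37G and wild type and a log2 ratio of -0.32 (-1.20 to 0.53). It was not called in any measure.

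Sepx1, Sepw1 and Selh, small redox proteins of the stress-related group, were also lower in footprints. Sepx1, which repairs oxidised methionine, had 358 RPKM of mRNA in TrspA37G against 518 RPKM in wild type, 1.45-fold lower (1.39 to 1.51) and so just short of the rule. Its footprints were at 155 RPFKM in TrspA37G against 742 RPFKM in wild type, 4.80-fold lower (4.53 to 5.09). Efficiency of Sepx1 was 0.432 in TrspA37G and 1.43 in wild type, 3.31-fold lower (3.08 to 3.56), the largest fold in efficiency among the 20 genes with the nt at the UGA included. Without these 18 nt Gpx1 was further apart, at 4.40-fold lower (4.16 to 4.65), than Sepx1 at 3.00-fold (2.74 to 3.27). Sepw1, a small thioredoxin-fold protein known from muscle, had 23.2 RPKM of mRNA in TrspA37G against 41.9 RPKM in wild type, 1.80-fold lower (1.51 to 2.16). Sepw1 footprints lay at 4.54 RPFKM (28 reads) in TrspA37G and 19.0 RPFKM (119 reads) in wild type, 4.18-fold lower (2.75 to 6.56), and its efficiency was 2.32-fold lower (1.46 to 3.77). The window of Sepw1 lies wholly 3' of its early UGA, so these values describe ribosomes beyond the Sec codon only. Selh, a nuclear thioredoxin-fold protein, rested on few reads, with 8 and 44 mRNA reads in TrspA37G and wild type (4.13-fold lower, 1.92 to 10.1) and 28 and 80 footprints (2.81-fold lower, 1.81 to 4.49). Its efficiency had a log2 ratio of 0.55 with an interval from -0.77 to 2.01. Selh was thus lower in mRNA and in footprints, while its efficiency was not resolved at this depth.

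Over the 6 stress-related genes (Gpx1, Gpx3, Sepx1, Sepw1, Selh and Selt), mRNA was lower in 3 and footprints in 4, with median log2 ratios of -0.69 and -1.78, and efficiency in 3, with a median of -0.82. Over all 20 genes the shares called lower were 20.0%, 40.0% and 30.0% in these measures. Over the 6 housekeeping genes (Txnrd1, Txnrd2, Gpx4, Sep15, Sephs2 and Sepp1), mRNA was lower in 0, with a median of -0.15, and footprints and efficiency in 3 each, with medians of -0.71 and -0.41. Once the median of all genes is taken out, the stress-related medians are -0.46 in mRNA, -1.30 in footprints and -0.52 in efficiency, and the housekeeping ones 0.09, -0.24 and -0.11. The members were sorted with results of these libraries known, so the lists are no independent evidence.

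Sephs2 and Sepp1, the genes of selenium supply, were called lower in footprints and not called in mRNA. Sephs2 makes selenophosphate, the selenium donor for Sec synthesis, and is itself a selenoprotein. It had 610 RPKM of mRNA in TrspA37G and 638 RPKM in wild type, a log2 ratio of -0.06. Sephs2 footprints were at 73.4 RPFKM in TrspA37G against 157 RPFKM in wild type, 2.14-fold lower (2.05 to 2.24), and its efficiency at 0.120 against 0.246, 2.05-fold lower (1.95 to 2.15). Sepp1 had 2025 RPKM of mRNA in TrspA37G and 2630 RPKM in wild type, a log2 ratio of -0.38 (-0.39 to -0.36). Sepp1 footprints were at 427 RPFKM in TrspA37G against 843 RPFKM in wild type, 1.97-fold lower (1.93 to 2.01). The efficiency of Sepp1 was 0.211 in TrspA37G and 0.321 in wild type, 1.52-fold lower (1.48 to 1.56), close to the threshold. With mRNA over the CDS as divisor, or with scaling to the median gene, it was no longer past the rule (log2 -0.55 and -0.31 in place of -0.60), and Sepp1 footprints missed it with that scaling too (log2 -0.50).

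The 3 thioredoxin reductases, which keep thioredoxin reduced, have Sec as their next-to-last codon, so nearly all their footprints lie 5' of the UGA. Txnrd2, the mitochondrial enzyme, had 8.14 RPKM of mRNA in TrspA37G and 8.31 RPKM in wild type. Its footprints were at 4.60 RPFKM in TrspA37G against 13.8 RPFKM in wild type, 2.99-fold lower (2.56 to 3.52), and its efficiency at 0.565 against 1.66, 2.94-fold lower (2.26 to 3.81). Txnrd2 was thus called lower in footprints while its mRNA had a log2 ratio of -0.03 (-0.33 to 0.27). Txnrd3, known mainly from testis, was low in liver, with 1.98 RPKM of mRNA in TrspA37G against 4.02 RPKM in wild type (2.03-fold lower, 1.5 to 2.77). Txnrd3 footprints were at 1.38 RPFKM against 3.77 RPFKM, 2.74-fold lower (2.10 to 3.59), and its efficiency had a log2 ratio of -0.43 (-1.03 to 0.16). Txnrd1, the cytosolic enzyme, had 31.9 RPKM of mRNA in TrspA37G and 37.5 RPKM in wild type, and footprints of 45.1 and 61.3 RPFKM, log2 ratios of -0.23 and -0.44 that did not pass the rule. Of the 3 reductases, mRNA was lower in 1, footprints in 2 and efficiency in 1, against 20.0%, 40.0% and 30.0% of all 20 genes. Over the 7 genes with the UGA in the last codons, these 3 with Selk, Sels, Selo and Seli, footprints were lower in 2, with a median log2 ratio of -0.44 that is 0.03 after the median of all genes is taken out.

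Dio1 was the 1 gene of 20 called higher in mRNA in TrspA37G, and Seli joined it with scaling to the median gene. This deiodinase of the liver converts thyroxine to the active thyroid hormone. It had 135 RPKM in TrspA37G against 76.8 RPKM in wild type, 1.75-fold higher (1.65 to 1.87). Its footprints over the CDS were at 55.3 RPFKM in TrspA37G and 39.9 RPFKM in wild type, a log2 ratio of 0.47 (0.34 to 0.60), short of the rule. Efficiency of Dio1 was 0.410 in TrspA37G and 0.519 in wild type, a log2 ratio of -0.34 (-0.49 to -0.19). Seli, an ethanolamine phosphotransferase of phospholipid synthesis, lay next to the threshold, with 24.2 RPKM of mRNA in TrspA37G and 16.3 RPKM in wild type (log2 0.57) and footprints of 62.4 and 41.7 RPFKM (log2 0.58). Its efficiency was 2.58 in TrspA37G and 2.56 in wild type.

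The 6 selenoproteins of the endoplasmic reticulum (Sep15, Selm, Selk, Sels, Selt and Sepn1), several of which act in protein folding and degradation there, gave 0 calls in mRNA, footprints or efficiency. Over all 20 genes, 20.0%, 40.0% and 30.0% were called lower in these measures, and 5.0%, 0.0% and 0.0% higher. Footprint log2 ratios of the 6 genes ran from -0.51 (Selt) to 0.23 (Sepn1), with a median of -0.30 that is 0.18 after the median of all genes is taken out. In efficiency the median was -0.01. Selm and Sepn1 had at most 30 footprints in a library, and their intervals were wide. Selo, a mitochondrial pseudokinase, had 26.6 RPFKM in TrspA37G and 38.8 RPFKM in wild type, a log2 ratio of -0.54 (-0.64 to -0.45) that did not pass the rule.

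**Figure D2:**
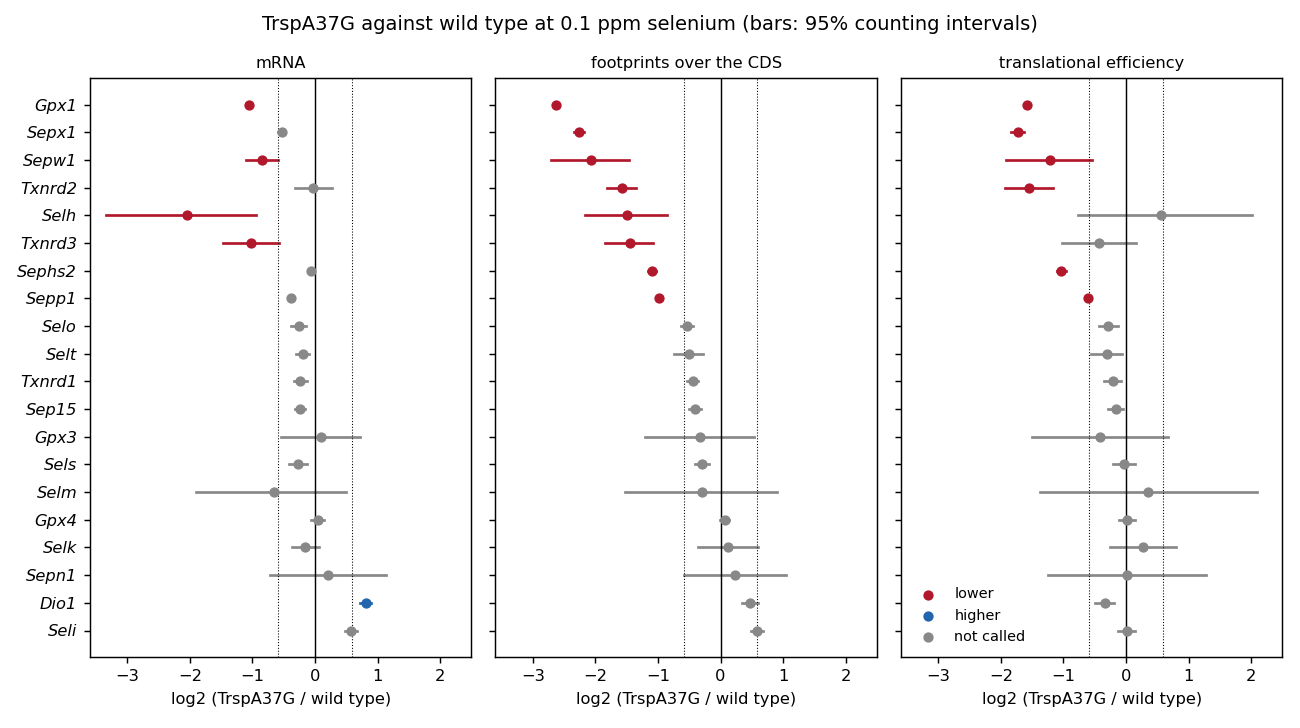
Log2 ratio of TrspA37G to wild type at 0.1 ppm selenium for mRNA, footprints over the CDS and translational efficiency of 20 genes, ordered by footprints; points are ratios, bars 95% counting intervals, dotted lines 1.5-fold, with red for lower, blue for higher and grey for not called. Gpx1, Sepx1, Txnrd2, Sepw1, Sephs2 and Sepp1 are red in the efficiency panel, and Dio1 in mRNA is the 1 blue point.

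Where along the mRNA the footprints differed was asked by dividing the CDS into a window 5' of the UGA, a window 3' of it and the 18 nt between them, which were taken to end with the UGA codon. Footprints 5' of the UGA were lower in TrspA37G for 6 of 19 genes (31.6%) and higher for 1 (5.26%), with a median log2 ratio of -0.41. The lower ones were Gpx1, Sepx1, Txnrd2, Txnrd3, Sepp1 and Sephs2, and the higher one was Dio1, at 86.7 RPFKM in TrspA37G and 57.3 RPFKM in wild type (1.51-fold, 1.36 to 1.69). Footprints 3' of it were lower for 6 of 12 (50%) and higher for 1 (8.33%), with a median of -0.85. The lower ones were Gpx1, Selh, Sepx1, Sepw1, Sephs2 and Sepp1, and the higher one was Seli. Scaled to the median gene, the split was 4 lower and 2 higher on the 5' side and 4 lower and 3 higher on the 3' side. The 3 higher on the 3' side were Seli, Dio1 and Gpx4, with Gpx4 at log2 0.67 in place of -0.18. The genes behind these counts differ, since Txnrd1, Txnrd2, Txnrd3, Selk, Sels and Selo, with the UGA close to the end, have no 3' window and Sepw1 has no 5' window.

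In Gpx1 the footprint level 5' of the UGA was 207 RPFKM in TrspA37G against 946 RPFKM in wild type, 4.57-fold lower (4.14 to 5.05). In the 18 nt at the UGA it was 5.46-fold lower (5.31 to 5.61), with 5952 reads in TrspA37G and 32992 in wild type. Beyond the UGA it was 79.8 RPFKM in TrspA37G against 890 RPFKM in wild type, 11.1-fold lower (10.5 to 11.9). The Gpx1 difference thus grew from the 5' window over the UGA to the 3' window. The readthrough ratio, the level 3' of the UGA divided by that 5' of it in the same library, was 0.385 in TrspA37G and 0.940 in wild type, 2.44-fold lower (2.17 to 2.74). This ratio does not depend on how libraries are scaled. In mRNA the same 3' to 5' ratio of Gpx1 was 1.99 in TrspA37G and 1.65 in wild type, and dividing by it moved the log2 difference in readthrough from -1.29 to -1.56.

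Gpx1 was the 1 gene of 11 (9.09%) with a lower readthrough ratio, and Seli the 1 (9.09%) with a higher one. The median over the 11 genes was a log2 ratio of -0.47, and 10 of 11 lay below 0. Divided by the 3' to 5' ratio of the mRNA, which 9 genes allowed, 6 of 9 lay below 0 with a median of -0.16, where 8 of these 9 had lain below 0 with a median of -0.33. The calls of Gpx1 and Seli held, and Selt lay at 0.66 (-0.51 to 1.83) in place of -0.26. Sephs2 had a readthrough ratio of 0.598 in TrspA37G and 0.886 in wild type, 1.48-fold lower (1.30 to 1.69), just under the threshold. Dio1 had 0.261 in TrspA37G and 0.378 in wild type, 1.45-fold lower (1.17 to 1.79). Sepp1 had 0.263 and 0.366, 1.39-fold lower (1.33 to 1.45), where the 3' window holds its 9 further Sec codons. These 3 genes, and Gpx4 as well, had intervals that excluded 1 without reaching 1.5-fold. Divided by the mRNA ratio, Sephs2, Dio1 and Sepp1 lay at log2 -0.56, -0.47 and -0.48, with intervals still below 0. Gpx4 had 0.142 in TrspA37G and 0.179 in wild type, a log2 ratio of -0.33 (-0.49 to -0.16) that was -0.01 after division by the mRNA ratio, which was 0.427 in TrspA37G and 0.533 in wild type. Sepx1 had 0.369 in TrspA37G and 0.373 in wild type, a log2 ratio of -0.02 (-0.43 to 0.40). Sep15, a folding factor of the endoplasmic reticulum, had 1.62 in TrspA37G and 1.63 in wild type (log2 -0.01, -0.21 to 0.19). Selt, Selh and Gpx3 had intervals that included 0 on the log2 scale. The lowest estimate of the 11 genes, a log2 ratio of -2.32, was that of Selh and was not resolved. It rested on 3 reads in the 3' window and 5 in the 5' window in TrspA37G, and on 27 and 9 in wild type. In Seli the 3' window is only 18 nt long and held 96 footprints in TrspA37G and 31 in wild type, 179 against 56.8 RPFKM (3.15-fold higher, 2.08 to 4.88), beside a 5' window at 60.6 and 41.1 RPFKM. Its readthrough ratio was 2.95 in TrspA37G and 1.38 in wild type, 2.13-fold higher (1.41 to 3.22), and 3.35-fold higher (1.66 to 6.75) after division by the mRNA ratio, which was 2.92 in TrspA37G and 4.58 in wild type.

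Sepx1, next to Gpx1 in the size of its footprint difference, showed folds between 4.34 and 5.44 in the 3 parts. Its footprints were 4.34-fold lower (4.0 to 4.71) 5' of the UGA, at 109 RPFKM in TrspA37G against 472 RPFKM in wild type. In the 18 nt at the UGA they were 5.44-fold lower (4.97 to 5.96), and 3' of it 4.39-fold lower (3.31 to 5.89), at 40.1 RPFKM in TrspA37G against 176 RPFKM in wild type. The intervals of the Sepx1 ratios on both sides of the UGA overlapped. In Selh the 3' window held 3 footprints in TrspA37G and 27 in wild type (8.86-fold lower, 2.73 to 45.6), against 5 and 9 in the 5' window. Sephs2 footprints 5' of the UGA were at 114 RPFKM in TrspA37G and 175 RPFKM in wild type (1.53-fold lower, 1.35 to 1.73), and 3' of it at 68.5 and 155 RPFKM (2.27-fold lower, 2.16 to 2.38). Sepp1 footprints were at 1247 RPFKM in TrspA37G and 1952 RPFKM in wild type on the 5' side (1.57-fold lower, 1.51 to 1.63) and, at 328 RPFKM in TrspA37G against 714 RPFKM in wild type, 2.17-fold lower (2.12 to 2.23) on the 3' side. Scaling to the median gene removed the calls of Sephs2 and Sepp1 in both windows (log2 -0.20 and -0.24 on the 5' side, -0.33 and -0.27 on the 3' side).

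Set against whole-mRNA levels, footprints 5' of the UGA were lower for 3 of 19 genes (15.8%), namely Gpx1, Sepx1 and Txnrd2, and higher for 0 (0.0%). Those 3' of it were lower for 6 of 12 (50%), Dio1, Gpx1, Sephs2, Sepp1, Sepw1 and Sepx1, and higher for 1 (8.33%), Seli. The 2 shares rest on different genes, as Txnrd2 among others has no 3' window and Sepw1 has no 5' window. Per mRNA, Gpx1 was 2.21-fold lower (2.00 to 2.44) on the 5' side and 5.39-fold lower (5.05 to 5.75) on the 3' side. Sephs2 was 1.46-fold lower (1.29 to 1.65) and 2.17-fold lower (2.05 to 2.28), and Sepp1 1.21-fold lower (1.16 to 1.25) and 1.67-fold lower (1.63 to 1.72). For Sephs2 and Sepp1 the 3' side thus passed the rule, while the 5' side was lower by less than 1.5-fold. The 3' window makes up 1155 of the 1299 nt of the CDS window in Sephs2 and 951 of 1083 nt in Sepp1. In Sephs2 it held 2358 of 2844 CDS footprints in TrspA37G and 5427 of 6191 in wild type. In Sepp1, with a denser 5' window, it held 9309 of 13803 in TrspA37G and 20566 of 27671 in wild type. Efficiency over the CDS therefore leans on the 3' side in these 2 genes, less so in Sepp1. Sepx1 was 2.99-fold lower (2.73 to 3.28) on the 5' side and 3.03-fold lower (2.29 to 4.01) on the 3' side. Dio1, with more mRNA in TrspA37G, had 0.168 footprints per mRNA on the 3' side in TrspA37G against 0.282 in wild type, 1.68-fold lower (1.40 to 2.02), and 0.643 against 0.746 on the 5' side. These ratios were added after the values had been seen.

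**Figure D3:**
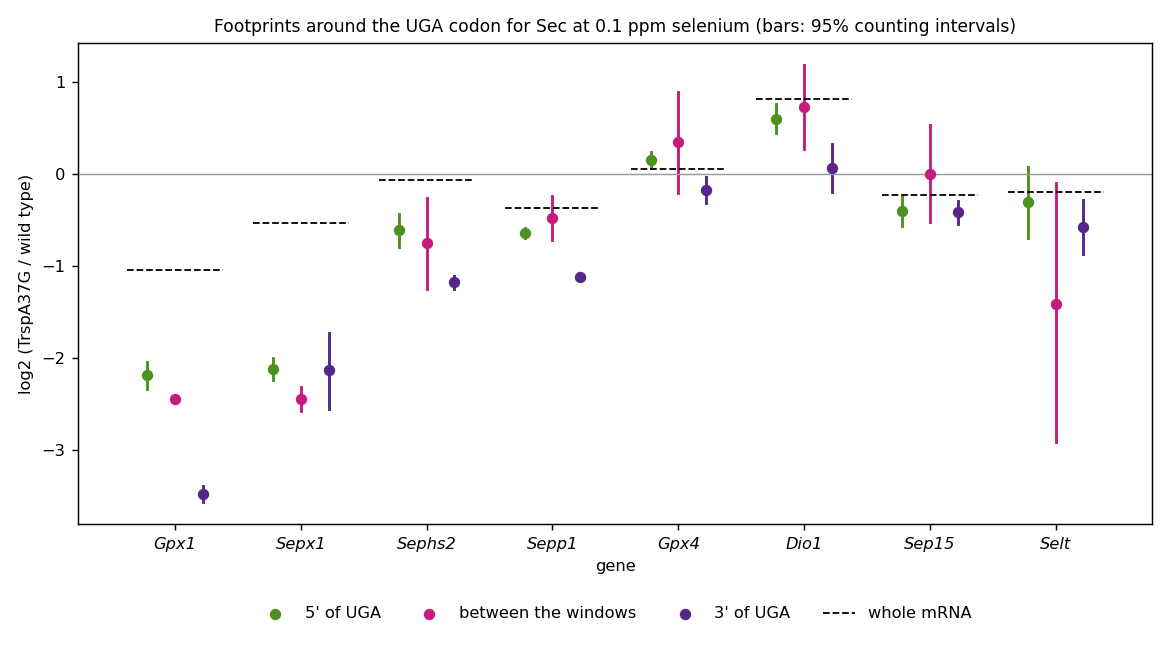
Log2 ratio of TrspA37G to wild type in footprints 5' of the UGA (green), in the 18 nt between the windows (pink) and 3' of the UGA (purple) for 8 genes at 0.1 ppm selenium, with 95% counting intervals; the dashed line is the ratio of the whole mRNA. In Gpx1 the 3' point (-3.48) lies below the 5' point (-2.19), in Sephs2 and Sepp1 likewise at a smaller distance, and in Sepx1 both lie near the same value (-2.13 and -2.12).

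The 18 nt at the UGA held a large share of the reads in a few genes, in mRNA as well as in footprints. In Gpx1 they held 79.3% of CDS footprints in TrspA37G and 69.7% in wild type (exact binomial 95% intervals 78.4% to 80.2% and 69.3% to 70.1%), over 3.30% of the length. Its mRNA reads there made up 27.1% in TrspA37G and 22.6% in wild type. In Sepx1 the footprint shares were 41.8% in TrspA37G and 47.3% in wild type, and the mRNA shares 26.7% and 24.1%, over 6.19% of the length. In Selh they were 71.4% of 28 footprints in TrspA37G and 55.0% of 80 in wild type. The share of Gpx1 was thus higher in TrspA37G and that of Sepx1 lower. Footprints in these nt were lower in TrspA37G for 5 of 10 genes (50%), Gpx1, Sepx1, Selh, Selt and Sephs2, and higher for 1 (10%), Dio1. In Sepp1 the footprint shares were 1.85% in TrspA37G and 1.31% in wild type, in Sephs2 1.97% and 1.55%, in Gpx4 2.07% and 1.71% and in Dio1 9.08% and 7.65%. Since mRNA libraries show a surplus in the same nt of Gpx1 and Sepx1, the part of library preparation or mapping in these shares was not tested. Without these nt Gpx1 footprints were at a log2 ratio of -3.19 in place of -2.63, those of Sepx1 at -2.12 in place of -2.26, and Seli passed the rule as higher (log2 0.60).

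The ratios between genotypes at 0.1 ppm were then set beside those at 0 and 2.0 ppm, which share no library with them. In efficiency, the ratio at 0.1 ppm was below that at 0 ppm by more than counting error in 7 of 20 genes (35.0%), namely Dio1, Gpx1, Sephs2, Sepp1, Sepx1, Txnrd1 and Txnrd2, and above it in 2 (10%), Gpx3 and Gpx4. The median difference over the 20 genes was -0.03 on the log2 scale. Efficiency was lower in TrspA37G for 3 genes at 0 ppm (15%; Gpx3, Sephs2 and Sepx1) and for 6 at 2.0 ppm (30.0%), 5 of which were among the 6 at 0.1 ppm, with Sep15 in place of Sepp1. Against 2.0 ppm the ratio at 0.1 ppm was below in 1 gene (5.0%), Sepp1, and above in 4 (20.0%), Gpx1, Sels, Sep15 and Txnrd1. The log2 ratio in efficiency of Txnrd2 was -0.03 at 0 ppm and -1.55 at 0.1 ppm, a difference of -1.52 (-2.07 to -0.97). That of Sepx1 was -0.60 at 0 ppm and -1.73 at 0.1 ppm, and that of Gpx1 ran over -0.41, -1.59 and -2.11 at 0, 0.1 and 2.0 ppm. Without the nt at the UGA, Gpx1 efficiency lay at -2.14 at 0.1 ppm and -2.17 at 2.0 ppm. The wider gap of Gpx1 at 2.0 than at 0.1 ppm therefore rested on the reads in these nt. Without them Gpx1 was also called lower in efficiency at 0 ppm. For Gpx1, Sepx1 and Txnrd2 the gap between genotypes in efficiency was thus wider at 0.1 than at 0 ppm.

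In mRNA the ratio at 0.1 ppm was above that at 0 ppm in 10 of 20 genes (50%) and below it in 2 (10%), Sepx1 and Txnrd1, with a median difference of 0.30. Dio1 had a log2 ratio of -1.43 at 0 ppm, 0.81 at 0.1 ppm and 0.26 at 2.0 ppm, so that its direction turned with the diet, by 2.24 (2.08 to 2.40) between 0 and 0.1 ppm. Seli followed the same order with -0.62, 0.57 and 0.23. For Txnrd2 mRNA the values were -0.03 at 0.1 ppm and -1.03 at 2.0 ppm, and for Sepx1 -0.27, -0.54 and -0.75 over the 3 diets. For footprints over the CDS the ratio at 0.1 ppm was below that at 0 ppm in 5 of 20 genes (25.0%), Gpx1, Sepp1, Sepx1, Txnrd1 and Txnrd2, and above it in 8 (40.0%), with a median difference of 0.20. Against 2.0 ppm it was below in 3 (15%) and above in 7 (35.0%) for footprints, and below in 4 (20.0%) and above in 7 (35.0%) for mRNA. In the readthrough ratio 4 of 9 genes (44.4%) lay lower at 0.1 than at 0 ppm, Gpx1, Seli, Sepp1 and Sepx1, and 1 (11.1%) higher, Selt. Against 2.0 ppm 3 of 11 (27.3%) lay lower, Gpx1, Gpx4 and Sephs2, and 2 (18.2%) higher, Selt and Sepp1. Gpx1 readthrough differed between genotypes by -0.26, -1.29 and -0.40 on the log2 scale at 0, 0.1 and 2.0 ppm, so its lower ratio in TrspA37G was past the rule at 0.1 ppm alone. The ratio of Gpx1 itself was 0.164, 0.385 and 0.362 in TrspA37G over the 3 diets, against 0.197, 0.940 and 0.477 in wild type, so the call at 0.1 ppm goes with the 1 wild-type library that stands highest. The genes past it at the other diets were Selt as lower (1 of 9, 11.1%) and Seli and Sepx1 as higher (22.2%) at 0 ppm, and Selt and Sepp1 as lower (2 of 12, 16.7%) at 2.0 ppm. Sepp1 had 0.49, -0.47 and -1.10 over the same diets. Each diet rests on its own pair of libraries, and variation between mice, which these intervals leave out, cannot be told apart from the diets.

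**Figure D4:**
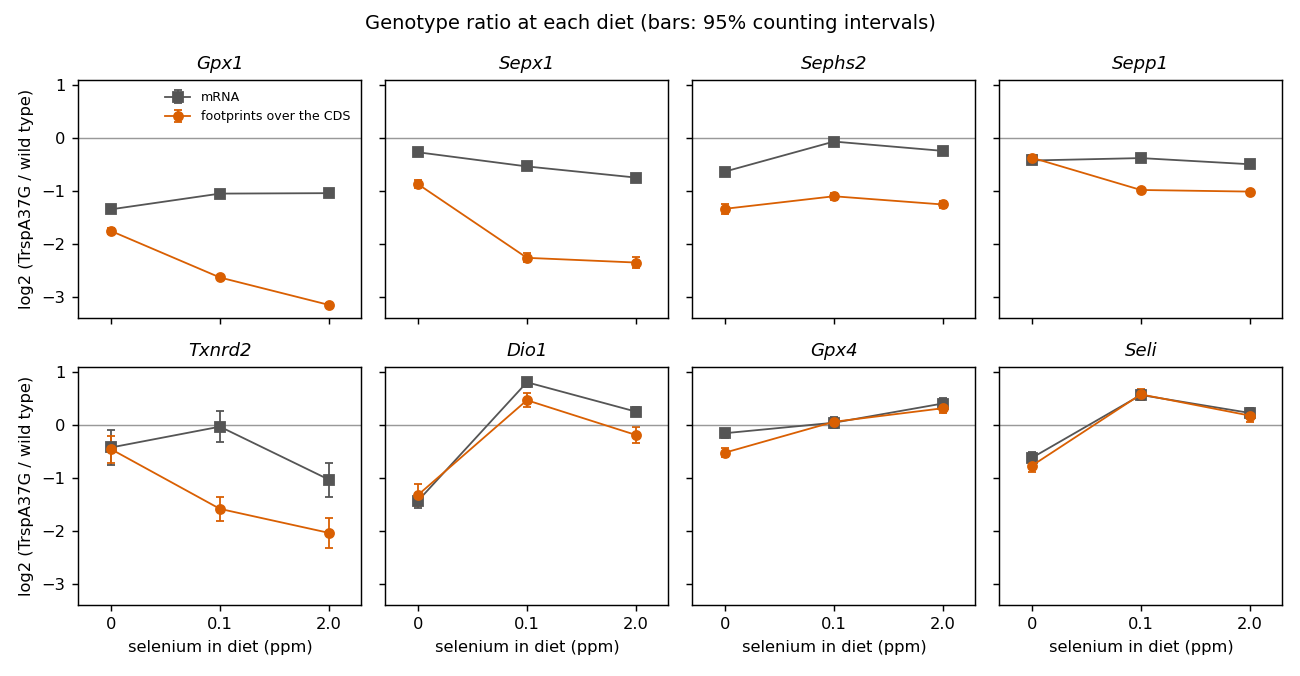
Log2 ratio of TrspA37G to wild type at 0, 0.1 and 2.0 ppm selenium for 8 genes, with mRNA as grey squares and footprints over the CDS as orange circles; bars are 95% counting intervals and each point rests on 1 library a side. Footprints of Sepx1 and Txnrd2 lie further below 0 at 0.1 ppm (-2.26 and -1.58) than at 0 ppm (-0.87 and -0.45), and Dio1 and Seli cross 0 between these diets.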

How the data were processed

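Liver ribosome footprints and mRNA were sequenced by the authors. Bowtie and build mm9 come from the submitters' processing notes, and versions, filters and the treatment of multiply mapped reads are not stated in any source at hand. The 4 deposited tables hold RPKM (mRNA) and RPFKM (footprints, the RPKM unit), which the authors scaled to region length and mapped reads, per the file headers. Per these headers, CDS values leave out the first 15 and last 3 codons. In each of the 3 tables with footprints, the header of 1 column contradicts itself, giving mRNA as the assay and RPFKM as the unit; as mRNA of that group stands elsewhere, the column was read as footprints.

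Whole reads were recovered with 1 mapped-read total per library, and all 795 values above 0 came out whole within 0.001 reads. With CDS windows 57 nt shorter than the annotated codons (GENCODE M21), 95.3% of CDS values were whole, against 10.9% at the best other length, and 22 of 23 genes matched. The Txnrd3 window (1899 nt) and 22 whole-mRNA lengths were fitted to the values as the smallest giving whole numbers, and their wholeness is no check. Only lengths were recovered, so the place of the 18 nt between the windows was inferred.

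A gene entered a comparison with at least 10 reads over both libraries and 1 in each. Intervals of genotype ratios were exact conditional ones (Clopper-Pearson for a ratio of 2 counts, the conditional odds ratio for up to 2000 reads, log-normal above). They were made with scipy 1.17.1 and Python 3.11.15 and checked on simulated reads. Intervals of differences between diets, and of readthrough divided by the mRNA ratio, were log-normal at any number of reads and were left out of that check. No molecular identifiers are given, so reads may share a molecule. A model of genotype blocked by diet over all 12 libraries could have been fitted and was left out, so no p-value is given. Values are named for each gene called in at least 1 of 7 measures and for 8 fixed genes, Gpx1, Gpx4, Sepp1, Sephs2, Sepx1, Sepw1, Txnrd1 and Dio1. Members, lists and measures were chosen with earlier results of these data known. Alternatives were another scaling, floor, pseudocount, threshold, divisor or window.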

Additional observations from a re-analysis of the deposited data

Results flagged for a closer look

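Dio1 was called in opposite directions at different diets in 3 of the measures. At 0.1 ppm its mRNA, its mRNA over the CDS and its footprints 5' of the UGA were higher in TrspA37G than in wild type (log2 ratios of 0.81, 0.82 and 0.60). At 0 ppm the same measures were lower in TrspA37G, at -1.43, -1.34 and -1.28. What drew attention was this opposite direction at 2 diets, with 1 library on each side of each ratio, and the difference was not tested across mice. The 5' window of Dio1 at 0.1 ppm was 1.51-fold higher (95% counting interval 1.36 to 1.69), at the edge of the rule.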

How the results depend on the processing

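No paired analysis was possible because at 0.1 ppm each group holds 1 library with no replicate numbers to pair, so no replicate could be left out either. Pairing the genotypes by diet, over all 3 diets, was possible and was not run. No value that was called in a measure changed sign under any alternative run, while some values not called did. Selt lay at a log2 readthrough ratio of 0.66 after division by the mRNA ratio, in place of -0.26. Selh efficiency lay at a log2 ratio of -0.10 without the 18 nt at the UGA, in place of 0.55. Scaling to the median gene turned small ratios such as those of Sephs2 and Txnrd2 mRNA above 0. Scaling to the median gene gave 2 genes higher in mRNA, 2 in mRNA over the CDS, 3 in footprints over the CDS, 2 in footprints 5' of the UGA and 3 in those 3' of it, in place of 1, 1, 0, 1 and 1. A 2-fold threshold gave 0 genes higher in mRNA, in mRNA over the CDS and in footprints 5' of the UGA, in place of 1 in each. Without the 18 nt at the UGA, 1 gene was higher in footprints over the CDS in place of 0. With a threshold of 1.5-fold and no interval, 3 genes (Gpx1, Gpx3 and Selh) were lower in readthrough in place of 1. Efficiency from the 5' window alone, an alternative added after the data had been seen, was lower for 3 genes in place of 6, and from the 3' window alone higher for 1 in place of 0. The cause was not tested, beyond what fewer genes or a higher threshold imply. Counts of lower genes otherwise stayed within 1.5 times the reported ones. Removing the floor and a pseudocount of 1 ended no call of a named gene. A floor of 50 reads left out Selh in 2 measures where it had been called lower. These were mRNA over the CDS (6 reads in TrspA37G and 30 in wild type) and footprints 3' of the UGA (3 and 27). The other calls of named genes held at that floor. Depth limits Selh, Gpx3, Selm and Sepn1 most, and Dio2, Dio3 and Gpx2 could not be compared.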
